A study of Mus musculus with 2 samples.

Results

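The genes described here are 45 regulators of the mouse cell cycle: cyclins, cyclin-dependent kinases (CDKs), their inhibitors and phosphatases, and the E2F, RB, MuvB, MYB and FOXM1 factors of cell-cycle transcription. They were picked out by gene symbol among the 54532 gene identifiers of the count table, and all 45 were found. The list of symbols was drawn up with earlier results of these data known, so the counts of genes lower or higher below are a description and not independent evidence. Each had a mean of at least 10 counts over the 2 libraries, the minimum used here, as did 13041 genes in all. The libraries are bulk RNA-seq of primary CD8+ T cells taken from spleens of mice of WT genotype, which the labels also call ND without expanding the term. One culture was kept for 8 h in RPMI 1640 without methionine and the other for 8 h in RPMI 1640 medium, called complete medium below. There was 1 library per medium, so the spread between cultures or animals is unknown and no test of the media is given. The labels name a whole-RNA and an mRNA library kit without saying which was used for which culture, so kit and medium cannot be told apart. They state neither the stimulus the T cells had received nor whether both cultures came from the same animals.

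A resting T cell holds CDK activity low, with RB-family proteins bound to E2F factors at promoters. D-type cyclins with CDK4 or CDK6 start the phosphorylation of RB in G1. Free E2F then switches on cyclin E, cyclin A and the replication genes, and B-type cyclins with CDK1 drive mitosis. The MuvB complex works on both sides of this switch: with the RB relatives p107 or p130 and E2F4 or E2F5 it forms the repressor DREAM, and with B-MYB and FOXM1 it activates the late cell-cycle genes. Certain promoter elements recur in these genes, E2F sites in genes of the G1/S transition and the cell-cycle genes homology region (CHR), often with CCAAT boxes, in genes of G2 and mitosis.

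The methionine-free library held 19647681 counts and the complete-medium library 14646527. The CD8 and T cell receptor genes were abundant in both, with summed levels of 3782 counts per 1000000 counts (CPM) without methionine and 4453 CPM in complete medium over 14 genes, none of them past 1.5-fold. Cd4 had 11 counts without methionine and 9 in complete medium. The 4 CD4 and regulatory T cell markers together summed to 60.5 CPM without methionine and 64.1 CPM in complete medium, mostly Ikzf2. Of the others, Foxp3 had 78 counts without methionine and 52 in complete medium, and Cd40lg had 16 and 2. All 11 monocyte and macrophage markers together had 23 counts without methionine and 26 in complete medium, and the 6 neutrophil markers had 2 in each. The summed level of 10 B cell markers was 131 CPM without methionine and 212 CPM in complete medium, nearly all of it Ighm, with 4 of the 7 measured markers at least 1.5-fold lower. The 7 dendritic cell markers summed to 26.9 CPM without methionine and 8.38 CPM in complete medium, mostly Zbtb46 and Flt3, while Xcr1, Clec9a, Siglech and Cd209a had at most 5 counts in either library. The 5 plasma cell markers summed to 103 CPM without methionine and 183 CPM in complete medium, mostly Xbp1, with 2 of the 3 measured markers lower, and Sdc1 had 7 counts without methionine and 32 in complete medium. The 5 NK cell markers summed to 138 CPM without methionine and 162 CPM in complete medium, nearly all of it Eomes, and Klrb1c was at 0 in both libraries. The 8 erythroid and platelet markers had 41 counts without methionine and 22 in complete medium, with Hba-a1 at 26 counts without methionine and 2 in complete medium, and Hbb-bs at 9 counts without methionine and 19 in complete medium. The part of these differences in the results below was not tested.

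Differences below are between TMM-scaled counts, TMM being the edgeR scaling that trims extreme genes, and levels are in CPM after that scaling. Folds carry a 95% interval computed from the pair of counts, which covers counting error only. A gene is called higher or lower by size, at 1.5-fold on the log2 scale with a prior count of 0.5. Of the 45 regulators, 29 were at least 1.5-fold lower without methionine, 1 was at least 1.5-fold higher and 15 lay within 1.5-fold. Among all 13041 measured genes, 18% were lower and 15.7% higher by the same measure. At 2-fold, 23 regulators were lower and 1 higher, where 9.29% of all genes were lower and 5.8% higher. At least 4-fold lower were 16 of the 45, against 2.98% of all genes, and at least 16-fold lower were 5, against 0.567%. The median log2 difference of the regulators was -1.13, with quartiles of -2.93 and -0.27, and that of all measured genes was 0.04. In bulk RNA, fewer cells in cycle and less RNA of these genes per cell cannot be told apart.

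**Figure D1:**
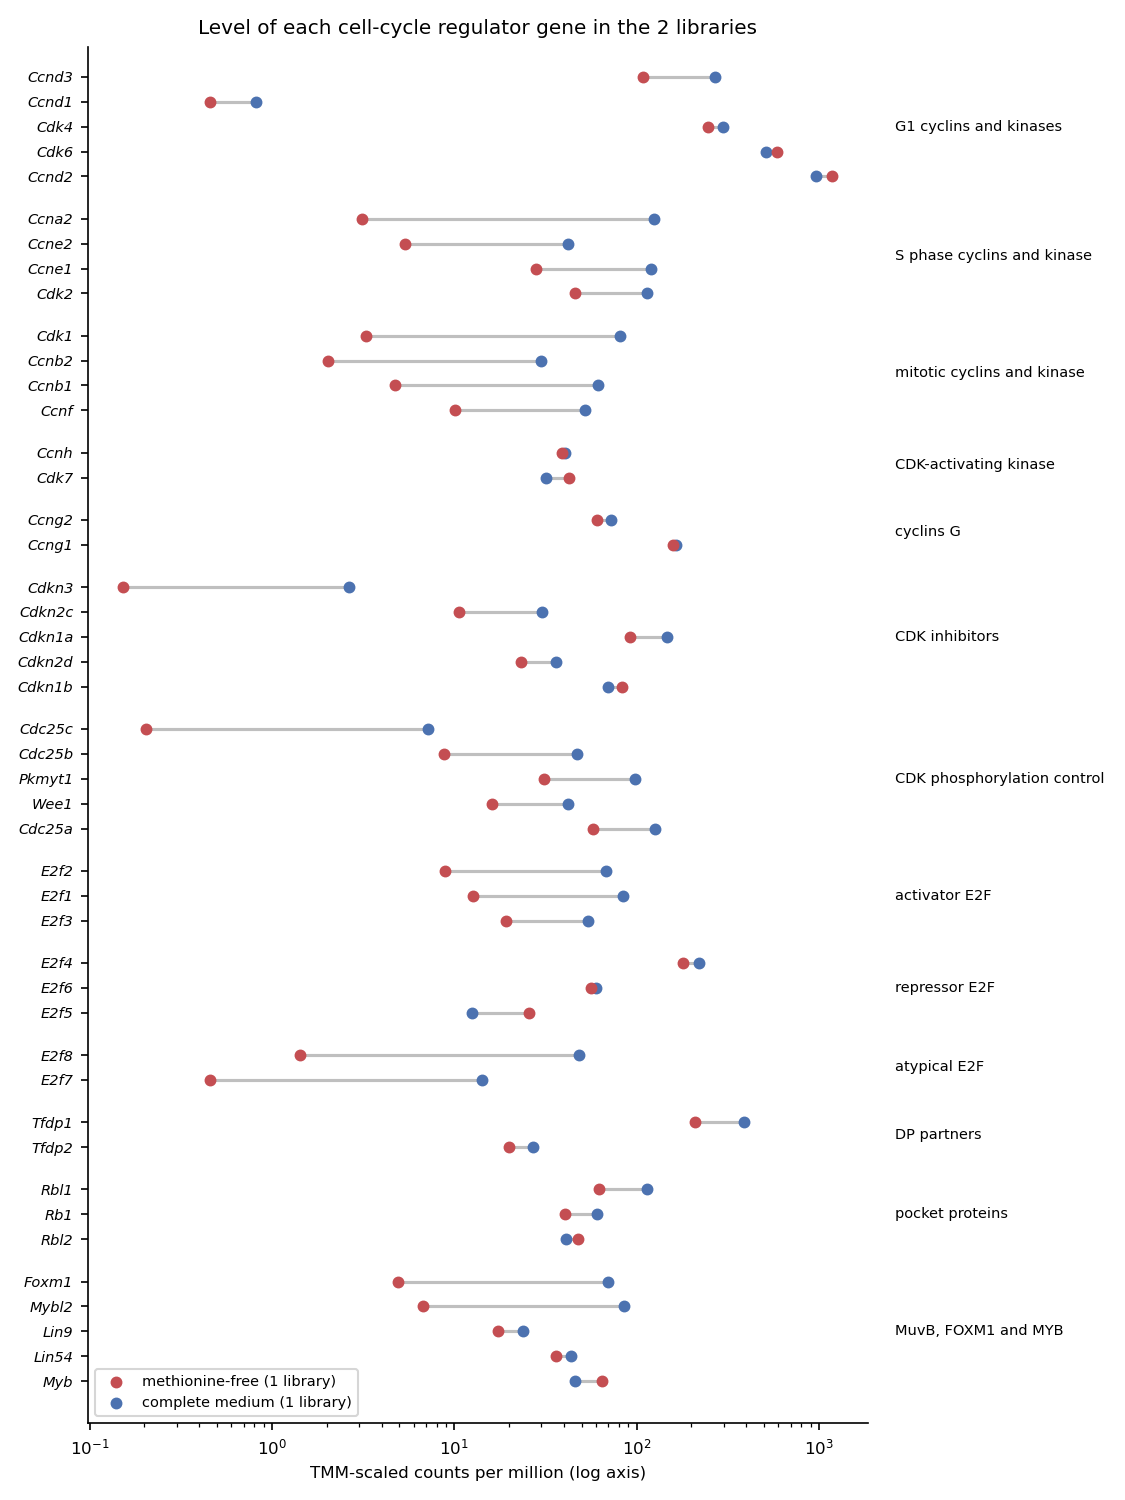
Level of each of the 45 cell-cycle regulator genes, in TMM-scaled CPM on a log axis, in the methionine-free library (red) and the complete-medium library (blue), grouped by role; a grey line joins the 2 libraries of a gene. The widest gaps are those of Ccna2, Cdk1, Cdc25c, E2f7 and E2f8, while Ccnd2, Cdk6, Cdk4, E2f4 and the cyclin G genes sit close together.

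Promoters of 6 regulators are shown so that sequences from both sides of the range of differences can be read. They are those of the 4 lowest and 2 highest log2 differences among regulators with a mean of at least 50 counts and an entry in the RefSeq promoter table for GRCm38.p6, which holds 32 of the 45. Ccna2, the lowest regulator, Cdc25c, and E2f5, the only one called higher, had no entry. The 2 highest shown, Cdk7 and Myb, were both within 1.5-fold. Each run of 300 bases goes 5′ to 3′ along the gene's strand and covers 250 bases before the start site and 50 from it. Capitals mark each match, on either strand, to an E2F element (TTTCCCGC, TTTGGCGC, TTTCGCGC or TTTGCCGC), a CHR element (TTTGAA or TTCGAA) or CCAAT; matches on the other strand appear as their reverse complement, such as ATTGG for CCAAT.
E2f8, chr7:48881547-48881846, minus strand: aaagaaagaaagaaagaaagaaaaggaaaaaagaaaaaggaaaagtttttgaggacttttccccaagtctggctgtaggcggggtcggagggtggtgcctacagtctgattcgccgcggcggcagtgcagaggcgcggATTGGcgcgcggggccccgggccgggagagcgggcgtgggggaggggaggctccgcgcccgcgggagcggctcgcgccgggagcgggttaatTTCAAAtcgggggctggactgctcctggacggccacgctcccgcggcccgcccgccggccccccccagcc
E2f7, chr10:110745189-110745488, plus strand: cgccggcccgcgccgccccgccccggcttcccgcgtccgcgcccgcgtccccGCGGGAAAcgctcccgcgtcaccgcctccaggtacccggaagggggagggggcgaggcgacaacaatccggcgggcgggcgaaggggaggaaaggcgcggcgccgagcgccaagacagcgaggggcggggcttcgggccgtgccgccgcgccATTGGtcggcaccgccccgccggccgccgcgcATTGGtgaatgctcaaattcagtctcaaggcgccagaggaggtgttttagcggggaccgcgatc
Cdk1, chr10:69352863-69353162, minus strand: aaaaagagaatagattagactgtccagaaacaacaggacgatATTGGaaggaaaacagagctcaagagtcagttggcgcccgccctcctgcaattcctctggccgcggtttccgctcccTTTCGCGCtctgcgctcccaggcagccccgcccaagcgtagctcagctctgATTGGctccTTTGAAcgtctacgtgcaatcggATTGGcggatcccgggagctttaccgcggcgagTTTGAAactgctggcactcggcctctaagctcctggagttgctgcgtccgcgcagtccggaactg
Ccnb2, chr9:70421505-70421804, minus strand: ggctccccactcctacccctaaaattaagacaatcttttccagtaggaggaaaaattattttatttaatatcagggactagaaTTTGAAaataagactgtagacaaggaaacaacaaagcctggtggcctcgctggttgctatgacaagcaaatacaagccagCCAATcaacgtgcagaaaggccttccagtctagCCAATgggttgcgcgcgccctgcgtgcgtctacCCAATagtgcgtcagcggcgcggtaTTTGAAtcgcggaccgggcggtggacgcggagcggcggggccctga
Cdk7, chr13:100730893-100731192, minus strand: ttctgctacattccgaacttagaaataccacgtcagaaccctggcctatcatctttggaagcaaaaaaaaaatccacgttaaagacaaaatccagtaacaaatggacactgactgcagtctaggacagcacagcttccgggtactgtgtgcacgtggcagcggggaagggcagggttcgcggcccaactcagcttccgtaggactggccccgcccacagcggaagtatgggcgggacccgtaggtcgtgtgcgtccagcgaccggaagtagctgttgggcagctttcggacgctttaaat
Myb, chr10:21160935-21161234, minus strand: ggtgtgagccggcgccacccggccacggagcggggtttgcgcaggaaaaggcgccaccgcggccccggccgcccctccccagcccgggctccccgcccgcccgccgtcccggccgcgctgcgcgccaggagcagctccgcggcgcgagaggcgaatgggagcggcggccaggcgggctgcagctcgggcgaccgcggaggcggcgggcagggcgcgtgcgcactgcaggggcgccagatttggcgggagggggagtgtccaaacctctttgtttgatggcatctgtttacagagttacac

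Positions here count the start-site base as 0. In the E2f8 promoter a CHR element lay 20 to 15 bases before the start site (-20 to -15) with a CCAAT box upstream of it. The Cdk1 promoter held an E2F element, 2 CHR elements and 3 CCAAT boxes, the nearer CHR at -15 to -10. The Ccnb2 promoter held 3 CCAAT boxes before the start site, at -87, -54 and -21, and 2 CHR elements, 1 of them just after it, at 4 to 9. The promoter of E2f7 held an E2F element at -198 to -191 and 2 CCAAT boxes. Those of Myb and Cdk7 held no match. Over the 32 regulators with an entry, 8 promoters held an E2F element, against 2.33% of 27025 promoters in all. For each gene, the start site farthest upstream among those that RefSeq lists was used. A CHR element was found in 9 of 32, against 19.5% of all promoters, and CCAAT in 15 of 32, against 38.0%. Both CHR and CCAAT were found in 7 of the 32 (Ccnb2, Ccnf, Cdc25b, Cdk1, Cdkn3, E2f3 and E2f8), against 7.73% of all promoters. Of the 32 regulators, 21 were at least 1.5-fold lower without methionine and 11 were not. An E2F element was present in 8 of the 21 lower regulators (Cdc25a, Cdk1, Cdk2, E2f2, E2f3, E2f7, Rbl1 and Tfdp1) and in 0 of the 11 others, so 13 lower regulators held none. CHR and CCAAT together were present in 7 of the 21 and in 0 of the 11. Taken alone, CHR was also found in Lin54 and Rbl2, and CCAAT in Ccng1 and Cdkn1b, none of which was lower. None of the searched words was found in 6 of the 21 lower regulators, namely Ccnd3, Ccne1, Cdkn1a, Cdkn2c, E2f1 and Mybl2. The same held for 7 of the 11 others and for 49.1% of all promoters. The windows of E2f1, Cdkn2c, Cdk6, Ccng2 and Tfdp2, all without a match, lie wholly inside the annotated gene. That of Tfdp2 begins at base 96258455, where the annotated gene begins at 96196275. Sequence before the annotated start of these genes was not searched, which limits the contrast of lower regulators and others. No match elements overlapped in these promoters. A match shows that the letters are present, not that a factor bound there. Only these exact words were searched, so a promoter without a match may still hold a site of another spelling. The printed Myb promoter, for example, holds tttggcgg, which differs from TTTGGCGC in its last base and was not counted.

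Of the 5 genes of G1 cyclins and their kinases, 3 were within 1.5-fold and 2 were lower. Ccnd2, which encodes cyclin D2, the main D-type cyclin gene in these cells, had 23143 counts (1181 CPM) without methionine and 14098 counts (960 CPM) in complete medium, a ratio of 1.23 (1.2 to 1.26). Cdk6, a kinase partner of the D cyclins, had 11600 counts (592 CPM) without methionine and 7516 counts (512 CPM) in complete medium, a ratio of 1.16 (1.12 to 1.19). The other kinase partner, Cdk4 (chromosome 10, 127063534 to 127067920, plus strand), had 248 CPM without methionine and 299.5 CPM in complete medium. These 3 genes were within 1.5-fold, although the counting intervals of each excluded a ratio of 1. Ccnd3, encoding cyclin D3 (chromosome 17, 47505051 to 47599691, plus strand), was apart from them, with 2130 counts (109 CPM) without methionine and 3943 counts (268 CPM) in complete medium, 2.47-fold lower (2.34 to 2.6). Its share of the counts of the 3 D-type cyclin genes was 8.42% (exact 95% interval 8.09 to 8.77) without methionine and 21.8% (21.2 to 22.5) in complete medium. Ccnd1 was near the limit of detection, with 9 counts without methionine and 12 in complete medium. It is counted among the 29 lower genes by size, but its interval of 0.209 to 1.45 for the ratio held 1, so counts this low do not resolve a difference. Its exons also overlap those of LTO1 on the opposite strand over 1100 bases, and LTO1 had 580 counts without methionine and 218 in complete medium.

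Cyclins E and A act after the D cyclins, and all were lower. Ccne1, encoding cyclin E1, the CDK2 partner of the G1/S transition (chromosome 7, 38097984 to 38107534, minus strand), had 547 counts (27.9 CPM) without methionine and 1755 counts (119 CPM) in complete medium, 4.28-fold lower (3.89 to 4.72). Its relative Ccne2 had 105 counts (5.36 CPM) without methionine and 621 counts (42.3 CPM) in complete medium, 7.89-fold lower (6.41 to 9.80). Ccne1 thus made up 83.9% of the cyclin E counts without methionine (80.8 to 86.6) and 73.9% in complete medium (72 to 75.6). Ccna2, the gene of cyclin A2, which binds CDK2 in S phase and CDK1 later (ENSMUSG00000027715, chromosome 3, 36564865 to 36572150, minus strand), had the lowest log2 difference of all 45, -5.31, and 0.123% of all measured genes had a lower one. It had 61 counts without methionine, against 1835 in complete medium. Cdk2, the kinase gene itself, differed less, with 46.0 CPM without methionine and 114 CPM in complete medium, 2.49-fold lower (2.29 to 2.70). In each of these 4 genes the upper bound of the counting interval for the ratio lay below 0.5.

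All 4 genes of the mitotic cyclins and their kinase were lower. Cdk1, the kinase gene of mitotic entry (ENSMUSG00000019942, chromosome 10, 69335146 to 69352938, minus strand), had 64 counts (3.27 CPM) without methionine and 1186 counts (80.8 CPM) in complete medium, 24.7-fold lower (19.2 to 32.3). Among Cdk1, Cdk2, Cdk4 and Cdk6 it held 0.367% of the counts without methionine (0.283 to 0.469) and 8.02% in complete medium (7.59 to 8.47). Ccnb1, encoding cyclin B1, had 93 counts (4.75 CPM) without methionine and 906 counts (61.7 CPM) in complete medium, 13.0-fold lower (10.5 to 16.3). Counts at its near-copies were few. The processed pseudogenes Gm12856 and Ccnb1-ps, whose transcripts match Ccnb1 at over 95% identity, had 1 and 2 counts without methionine and 12 each in complete medium. How reads that match both gene and copy were counted is not given. The B-type cyclin gene Ccnb2 (chromosome 9, 70407692 to 70421547, minus strand) had 40 counts (2.04 CPM) without methionine and 442 counts (30.1 CPM) in complete medium, 14.7-fold lower (10.7 to 20.9). The intervals of Ccnb1 and Ccnb2 overlap, so their difference in fold is not resolved. Ccnf, encoding cyclin F, a ubiquitin ligase subunit rather than a CDK partner, was 5.13-fold lower (4.39 to 6.03). Set against the 3 D-type genes, the genes of cyclins A2, B1, B2, E1 and E2 held 3.24% of the summed cyclin counts without methionine (3.03 to 3.46) and 23.5% in complete medium (23.0 to 24.1).

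The CDK-activating kinase, which phosphorylates the activation loop of other CDKs and also serves transcription, was within 1.5-fold. Ccnh, its cyclin, had 38.9 CPM without methionine and 40.7 CPM in complete medium, and its interval held a ratio of 1. Cdk7, its kinase, had 42.8 CPM without methionine and 31.9 CPM in complete medium, a ratio of 1.34 (1.2 to 1.5). The cyclin G genes, whose products do not drive the cycle and of which Ccng1 is a known p53 target, were also close. Ccng1 had 158 CPM without methionine and 165 CPM in complete medium, with a ratio interval of 0.905 to 1.01. Ccng2, often high in cells leaving the cycle, had 60.6 CPM without methionine and 72.9 CPM in complete medium, a ratio of 0.832 (0.766 to 0.905).

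**Figure D2:**
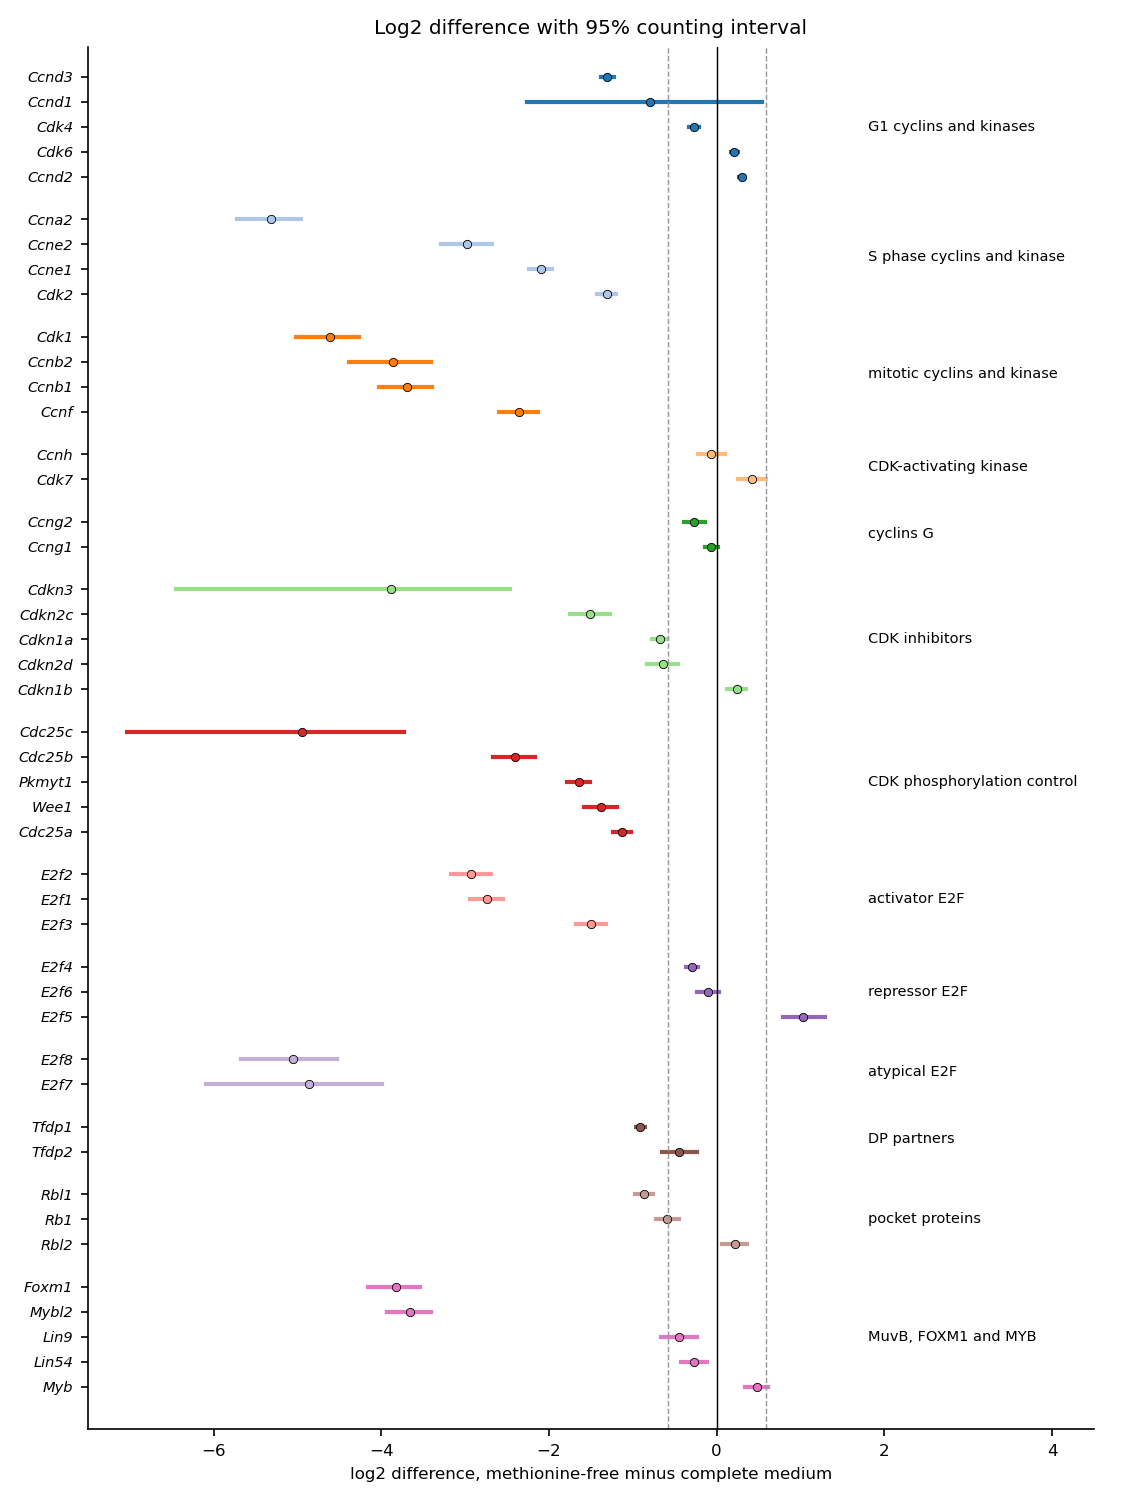
Log2 difference of each regulator, methionine-free minus complete medium (points), with the 95% counting interval as a bar, grouped and coloured by role; dashed lines stand at 1.5-fold either way. The intervals are wide for Ccnd1, Cdkn3, Cdc25c and E2f7, which had at most 9 counts without methionine, and E2f5 is the single gene whose point lies right of the upper dashed line.

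The CDK inhibitors were not higher as a set: 4 of 5 were at least 1.5-fold lower and 1 was within 1.5-fold. Cdkn1b, which encodes p27, the inhibitor of cyclin E-CDK2 kept high in resting T cells, had 1620 counts (82.7 CPM) without methionine and 1027 counts (69.9 CPM) in complete medium, a ratio of 1.18 (1.09 to 1.28). Cdkn1a, encoding p21, a p53-induced inhibitor (chromosome 17, 29090976 to 29100727, plus strand), had 1797 counts (91.7 CPM) without methionine and 2156 counts (147 CPM) in complete medium, 1.6-fold lower (1.5 to 1.71). Cdkn1b therefore made up 47.4% of the counts of the pair without methionine (45.7 to 49.1) and 32.3% in complete medium (30.6 to 33.9). Cdkn2c and Cdkn2d encode INK4 inhibitors of CDK4 and CDK6. Cdkn2c, encoding p18, had 209 counts (10.7 CPM) without methionine and 446 counts (30.4 CPM) in complete medium, 2.85-fold lower (2.41 to 3.37), and Cdkn2d, encoding p19, was 1.56-fold lower (1.38 to 1.78). Cdkn3 encodes a phosphatase that removes the activating phosphate of CDKs and is itself a mitotic gene. It had 3 counts without methionine and 39 in complete medium, a ratio of 0.0577 (0.0114 to 0.181).

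All 5 genes that set the inhibitory phosphorylation of CDKs were at least 2-fold lower, phosphatases and kinases alike. The CDC25 phosphatases activate CDKs. Cdc25a, which acts at G1/S (chromosome 9, 109875579 to 109893895, plus strand), had 57.4 CPM without methionine and 126 CPM in complete medium, 2.19-fold lower (2.03 to 2.36). Cdc25b had 173 counts (8.83 CPM) without methionine and 691 counts (47.1 CPM) in complete medium, 5.33-fold lower (4.5 to 6.33). Cdc25c, the phosphatase of mitotic entry, had 4 counts without methionine and 105 in complete medium, 35-fold lower with a wide interval (13.3 to 131). The opposing kinases lay between the first and second of these. Wee1 had 314 counts (16 CPM) without methionine and 614 counts (41.8 CPM) in complete medium, 2.61-fold lower (2.27 to 3). Pkmyt1, the membrane-bound kinase of CDK1, was 3.13-fold lower (2.84 to 3.45). It overlaps Paqr4 on the opposite strand over 319 exonic bases, and Paqr4 was also lower, with 147 counts without methionine and 406 in complete medium.

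The E2F family split by class. The activators were all lower: E2f1 (chromosome 2, 154559407 to 154569892, minus strand) had 247 counts (12.6 CPM) without methionine and 1239 counts (84.4 CPM) in complete medium, 6.69-fold lower (5.83 to 7.70). E2f2 had 174 counts (8.88 CPM) without methionine and 994 counts (67.7 CPM) in complete medium, 7.62-fold lower (6.48 to 9.01). E2f3 had 375 counts (19.1 CPM) without methionine and 793 counts (54.0 CPM) in complete medium, 2.82-fold lower (2.49 to 3.20). The intervals of E2f1 and E2f2 overlap, and that of E2f3 lies apart from both.

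The atypical members E2f7 and E2f8, E2F-induced repressors that bind DNA without a DP partner, lay lower still. E2f8 had 28 counts (1.43 CPM) without methionine and 709 counts (48.3 CPM) in complete medium, 33.8-fold lower (23.2 to 51.2). E2f7 had 9 counts (0.459 CPM) without methionine and 208 counts (14.2 CPM) in complete medium, 30.8-fold lower (15.9 to 68.4). Their intervals overlap almost wholly. The promoters of both are printed above.

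The classical repressors E2f4, E2f5 and E2f6 were not lower by 1.5-fold. E2f4, the most abundant E2F gene here, had 3526 counts (180 CPM) without methionine and 3239 counts (221 CPM) in complete medium, a ratio of 0.816 (0.778 to 0.856). E2f6, which represses without binding RB proteins, had 56.0 CPM without methionine and 60.2 CPM in complete medium, with an interval that held 1. E2f5 (ENSMUSG00000027552, chromosome 3, 14578641 to 14606309, plus strand) was the 1 regulator called higher, with 501 counts (25.6 CPM) without methionine and 183 counts (12.5 CPM) in complete medium, a ratio of 2.05 (1.73 to 2.44). Of all measured genes, 94.7% had a lower log2 difference than E2f5. Its exons overlap 26 bases of 1810022K09Rik on the opposite strand, a gene with 889 counts without methionine and 689 in complete medium.

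The make-up of the E2F transcripts therefore differed. E2f1 to E2f3 held 13.4% of the counts of E2f1 to E2f6 without methionine (12.6 to 14.3) and 41.3% in complete medium (40.1 to 42.4). E2f7 and E2f8 together held 0.621% of the counts of all 8 E2F genes without methionine (0.438 to 0.855) and 11.1% in complete medium (10.4 to 11.8). E2f4 alone held 59.2% without methionine (57.9 to 60.4) and 39.3% in complete medium (38.2 to 40.3).

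**Figure D3:**
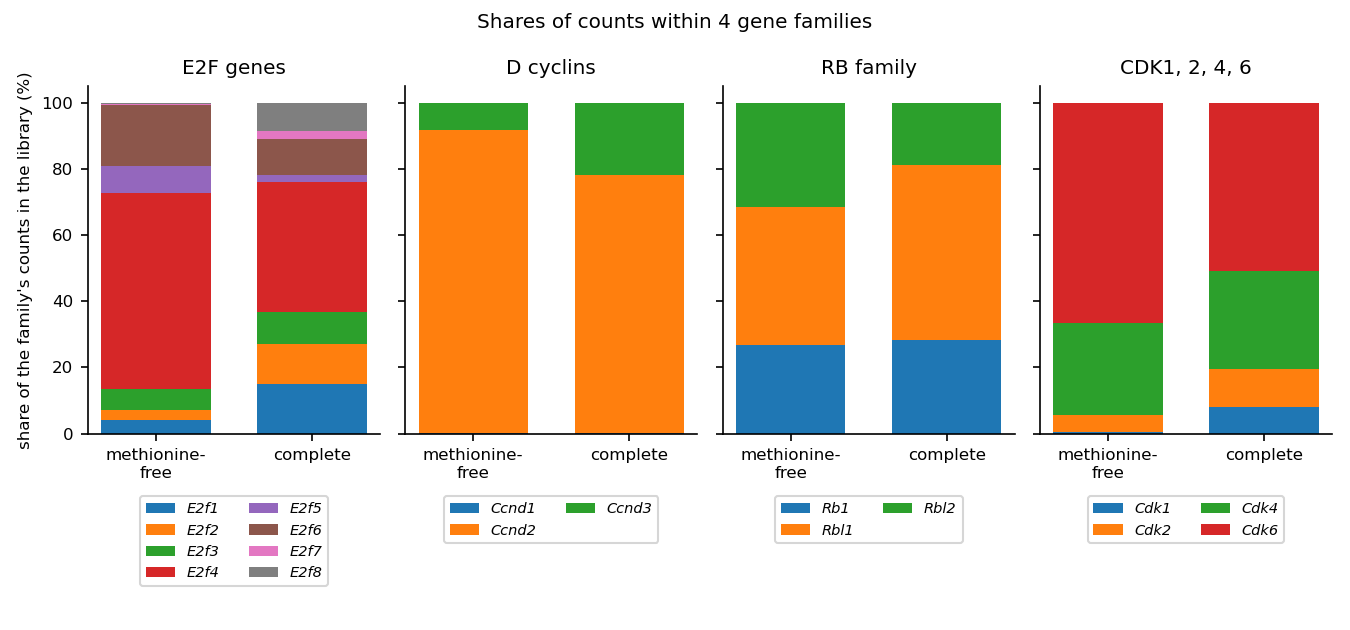
Share of each gene in the summed counts of its family, in percent, for the E2F genes, the D cyclins, the RB family and 4 CDK genes, with the methionine-free library left and the complete-medium library right in each panel. The E2f1 to E2f3 and E2f7 to E2f8 blocks are smaller without methionine, as are those of Ccnd3, Rbl1 and Cdk1. Shares are of counts and are not corrected for gene length.

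Of the DP partners, which E2F1 to E2F6 need to bind DNA, Tfdp1 had 4074 counts (208 CPM) without methionine and 5736 counts (391 CPM) in complete medium, 1.88-fold lower (1.8 to 1.96). A processed pseudogene that matches it, Gm7390, had 20 counts without methionine and 30 in complete medium. Tfdp2 had 19.9 CPM without methionine and 27.1 CPM in complete medium, just within the threshold at 1.36-fold lower (1.18 to 1.57). The RB family also differed within itself. Rbl1, encoding p107, itself an E2F target, had 1224 counts (62.5 CPM) without methionine and 1672 counts (114 CPM) in complete medium, 1.82-fold lower (1.69 to 1.96). Rb1, the retinoblastoma gene (chromosome 14, 73183673 to 73325822, minus strand), was at the threshold, with 40.4 CPM without methionine and 60.7 CPM in complete medium, 1.5-fold lower (1.36 to 1.66). It is the lower regulator nearest the 1.5-fold threshold on its inner side, and Lin9, at 1.37-fold lower, is the nearest one short of it. Rbl2, encoding p130, the pocket protein of resting cells, had 930 counts (47.5 CPM) without methionine and 600 counts (40.9 CPM) in complete medium, a ratio of 1.16 (1.05 to 1.29). Its share of the counts of the 3 pocket protein genes was 31.6% without methionine (29.9 to 33.3) and 19.0% in complete medium (17.6 to 20.4). Rbl2 shares 693 exonic bases with Aktip on the opposite strand, which had 323 counts without methionine and 190 in complete medium.

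The MuvB, FOXM1 and MYB genes split, with 2 of 5 lower and 3 within 1.5-fold. Foxm1, the forkhead activator of G2 and mitotic genes (ENSMUSG00000001517, chromosome 6, 128362967 to 128376146, plus strand), had 96 counts (4.90 CPM) without methionine and 1029 counts (70.1 CPM) in complete medium, 14.3-fold lower (11.6 to 17.8). Mybl2, encoding B-MYB, whose near-copy Gm3320 had 2 counts without methionine and 13 in complete medium, had 132 counts (6.74 CPM) without methionine and 1257 counts (85.6 CPM) in complete medium, 12.7-fold lower (10.6 to 15.3). The MuvB core genes Lin9 and Lin54, whose products hold the complex together and bind the CHR, were within 1.5-fold, with 17.4 and 36.2 CPM without methionine and 23.8 and 43.6 CPM in complete medium. Myb, the c-MYB gene, stood on the other side, with 1260 counts (64.3 CPM) without methionine and 679 counts (46.2 CPM) in complete medium, a ratio of 1.39 (1.27 to 1.53). Myb made up 90.5% of the counts of the Myb and Mybl2 pair without methionine (88.9 to 92.0) and 35.1% in complete medium (32.9 to 37.2).

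Levels were compared between genes after division by the length of their merged exons in kilobases. On that scale Ccnd2 was the highest regulator without methionine, at 126 CPM per kilobase, above 97.5% of measured genes, and it stood at 102 CPM per kilobase in complete medium, just under Tfdp1 at 106. Ccna2 and Ccnd3 were both at 30.6 CPM per kilobase in complete medium, while without methionine Ccna2 was at 0.762 and Ccnd3 at 12.4. The level of Ccna2 per kilobase was above 15.9% of measured genes without methionine and above 86.0% in complete medium. Cdk1 was above 14.2% without methionine and 74.3% in complete medium, and E2f8 above 5.97% without methionine and 59.0% in complete medium. Cdk4 stayed in the upper range, above 95.5% and 96.2%. The counts of all 45 genes summed to 3666 CPM without methionine and 5046 CPM in complete medium. Ccnd2 and Cdk6 alone took 48.4% of those counts without methionine (48.0 to 48.7) and 29.2% in complete medium (28.8 to 29.5).

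**Figure D4:**
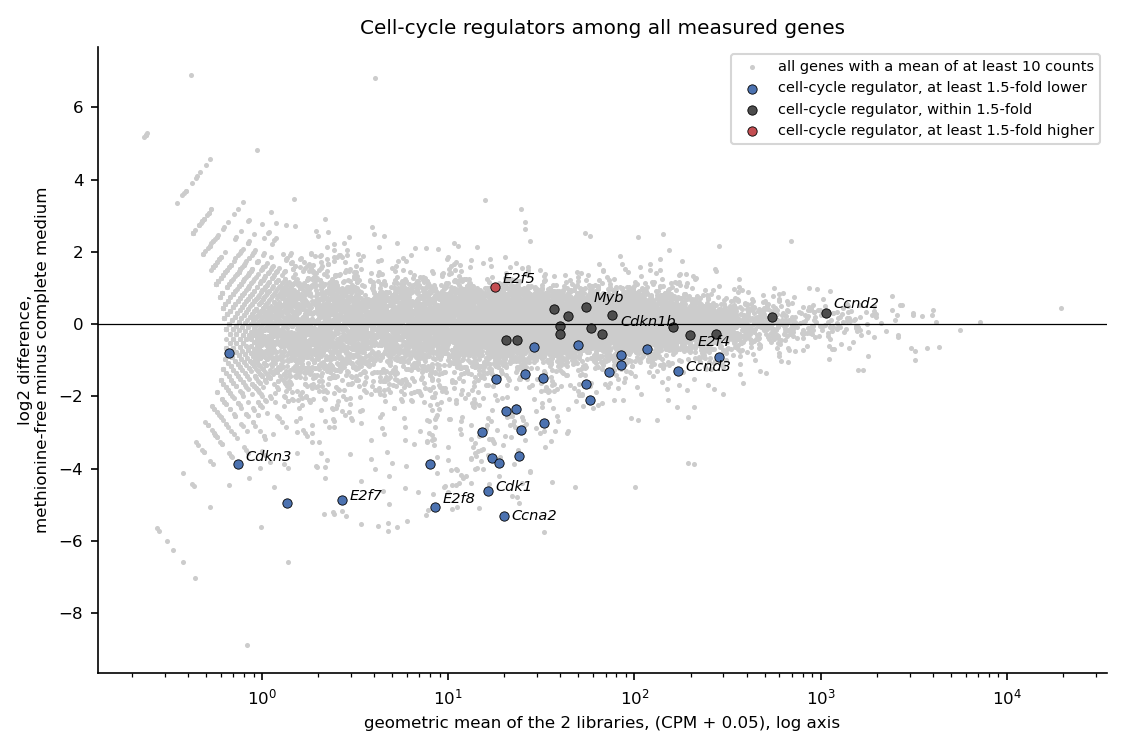
Log2 difference, methionine-free minus complete medium, against the geometric mean level of the 2 libraries (CPM plus 0.05, log axis) for all 13041 measured genes (grey) and the 45 regulators (coloured by size of difference). Ccna2, E2f8, E2f7 and Cdk1 lie below most genes of similar level, and E2f5 is the 1 regulator at least 1.5-fold higher.

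Beyond the 45 genes, 10 lists of related genes were counted in the same way. The shares to set beside each list are those of all measured genes, 18% lower and 15.7% higher. All 30 of a list of G1/S E2F targets were at least 1.5-fold lower, with a median log2 difference of -1.87; Rrm2, a ribonucleotide reductase subunit, had 10.1 CPM without methionine and 229 CPM in complete medium, and the licensing factor Cdc6 had 6.63 and 112 CPM. Of 30 G2/M targets of MuvB, 29 were lower by 1.5-fold or more, their median being -3.84 over the 30, and the checkpoint gene Bub3 was the exception at 150 CPM without methionine and 161 CPM in complete medium. Among 13 mitotic kinases and CDK1 regulators 8 were lower and 1, Ensa, was higher. The lists share genes, so their counts are not separate. Plk1, Aurka and Aurkb are also among the G2/M targets, as are Cdc20 and Ube2c of the proteolysis list below. Btg2 is on the p53 and quiescence lists, and Max on the partner and growth signal lists. Aurkb, the Aurora B kinase gene, had 84 counts without methionine and 1967 in complete medium. These lists were chosen with results on dividing-cell genes known, so their direction is not independent evidence.

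Most cyclins and CDKs that serve transcription or other tasks were within 1.5-fold. Beside the counts below, 18% of all measured genes were lower and 15.7% higher. Of 14 measured other cyclin genes, 1 was lower, Ccno, with 25 counts without methionine and 29 in complete medium and an interval that held 1, and 1 was higher, Ccnj, with 216 counts without methionine and 97 in complete medium; the median was 0.13. Of 15 measured other CDK genes and cofactors, 4 were higher and 1, Cdk5rap3, was lower (median 0.33). Cdk5rap3 had 46.3 CPM without methionine and 72.7 CPM in complete medium, 1.57-fold lower. Cdk12, a kinase of RNA polymerase II, was 1.74-fold higher, and Cdk5r1, which encodes the p35 activator of CDK5, was 4.26-fold higher, with 18 CPM without methionine and 4.22 CPM in complete medium. Mnat1, the assembly factor of the CDK-activating kinase, was near its partner Cdk7, with a ratio of 1.38 (1.23 to 1.56).

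Other inhibitors were scarce: Cdkn2a had 1 count without methionine and 4 in complete medium, Cdkn1c had 2 and 1, and Cdkn2b had 25 and 15, and the intervals of all 3 ratios held 1. Of 16 measured genes of inhibitors and cell-cycle proteolysis, 6 were lower and none higher (median -0.21). Skp2, the ubiquitin ligase subunit that targets p27, had 8.17 CPM without methionine and 21.2 CPM in complete medium, 2.59-fold lower (2.14 to 3.16). The mitotic ubiquitin-conjugating enzyme gene Ube2c was 22.3-fold lower. Of 14 further E2F, RB, MuvB and MYB partners, 1 was lower, Mybl1 (28 counts without methionine and 112 in complete medium), and 5 were higher. Among the higher ones was Lin52, the MuvB subunit through which DREAM assembles, with 13.8 CPM without methionine and 8.38 CPM in complete medium, while Lin37 had 16.8 and 18.8 CPM.

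The lists upstream of the cycle had medians near that of all genes. Of 21 measured p53 target genes, 1 (Perp) was lower and 3 (Plk2, Fas and Btg2) were higher, with a median of 0.20. Mdm2, the p53 ubiquitin ligase gene, had 121 CPM without methionine and 98.3 CPM in complete medium, a ratio of 1.23 (1.15 to 1.31), beside the lower Cdkn1a. Of 20 quiescence regulators, 7 were higher and 2 lower (median 0.16), where 15.7% of all measured genes were higher and 18% lower. The largest difference was that of the antiproliferative gene Btg1, higher at 461 CPM without methionine and 165 CPM in complete medium. The 2 lower genes were Klf10, with 333 counts without methionine and 535 in complete medium, and Runx1, with 153 and 235. Of 24 genes of growth signals to G1, 3 were higher and 4 lower (median 0.04). The receptor gene Il2rb was 1.97-fold lower, with 793 CPM without methionine and 1559 CPM in complete medium. Myc, which drives growth and G1 entry, had 25632 counts (1308 CPM) without methionine and 11828 counts (805 CPM) in complete medium, a ratio of 1.62 (1.59 to 1.66). Mxd4, which encodes a MAX partner that opposes MYC, had 27.5 CPM without methionine and 8.51 CPM in complete medium. Its relative Mxd3 lay the other way, with the largest difference of this list. It had 17 counts without methionine and 95 in complete medium, 7.46-fold lower.

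**Figure D5:**
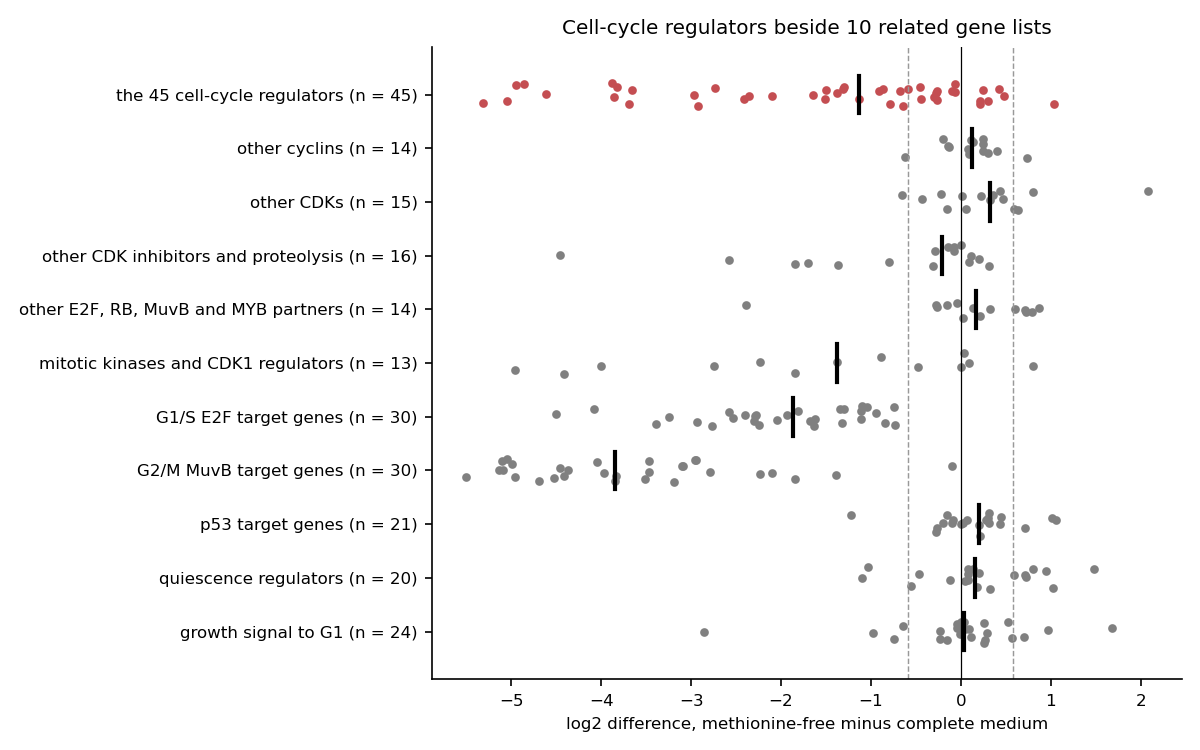
Log2 difference, methionine-free minus complete medium, of the 45 regulators (red) and of the measured genes of 10 related lists (grey), 1 point per gene, with black bars at the medians and dashed lines at 1.5-fold either way; vertical position within a row is arbitrary. The regulators spread from -5.31 to 1.04, the G1/S and G2/M target lists lie left of the lower dashed line except Bub3, and the medians of the other cyclin, other CDK, p53, quiescence and growth signal lists lie between 0.04 and 0.33.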

How the data were processed

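Bulk RNA-seq of splenic CD8+ T cells, 1 library per medium, was read from 1 deposited table of raw counts per Ensembl gene. The authors deposited these counts unscaled, as whole numbers; per the submitters' processing notes, the genome was mm10. Aligner, counter, annotation release and strand setting were not given in the sources used here. Columns were matched to samples by name. Symbols, coordinates and merged exon lengths came from GENCODE M21 (GRCm38, the assembly of mm10; 1-based); 37 identifiers had no entry.

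Counts were scaled with TMM (edgeR 4.0.16, R 4.3.3), with the size factors of DESeq2 1.42.0 as an alternative. Log2 differences (prior count 0.5) and exact conditional binomial 95% intervals were computed in Python 3.11.15 with scipy 1.17.1 for genes averaging 10 counts or more. The code was run on simulated counts with counting (Poisson) error only. Those hold no spread between cultures and no duplicate reads, so the run checks the arithmetic alone. Intervals are computed from the 1 pair of counts of a gene, so they cover counting error only. No molecular identifiers are named, so duplicate reads may be counted separately and the intervals may be too narrow. Near-identical transcripts were searched with BLAST 2.17.0 (at least 95% identity over 200 bases). Promoters came from RefSeq.

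The 45 genes and all lists were chosen with earlier results of these data known. From each list the text names some of the 4 largest differences with a mean of at least 50 counts, and Mnat1, Cdkn2a, Cdkn2b, Cdkn1c, Lin37, Lin52, Mybl1, Skp2, Myc and Mdm2. Bub3, Ensa, Ccno, Rbbp4, Pcgf6, L3mbtl2, Max and the marker, overlapping and pseudogene names were chosen after their values were seen, as was the choice of families for shares. One count was worth 0.0510 CPM without methionine and 0.0681 CPM in complete medium.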

Additional observations from a re-analysis of the deposited data

How the results depend on the processing

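Of the 45 regulators, 29 were at least 1.5-fold lower with TMM, with total counts, with DESeq2 size factors, with a prior count of 2 and with no minimum count, and 28 with upper-quartile scaling, where Rb1 no longer reached 1.5-fold. The count higher was 1 in each of these. No regulator changed sign. At a threshold of 2-fold, 23 were lower and 1 higher. With a minimum mean of 100 counts, 42 regulators remained, 26 of them lower, and the median log2 difference was -1.02, against -1.13 over all 45; the 3 genes left out by construction are Ccnd1, Cdkn3 and Cdc25c. Leaving out the 21 regulators that overlap an opposite-strand gene with counts left 24, of which 15 were lower and 0 higher, since E2f5 is among those left out, with a median of -1.32. Any overlap of gene spans counted here, so Wee1, E2f3 and Rbl1 were left out although they share 0 exonic bases with such a gene. Among the related lists, counts of lower genes that differed by over 1.5 times from the main ones rest on 1 to 3 genes: other cyclins had 3 with no minimum and 0 at a minimum of 100, against 1, p53 targets 2 and 0, against 1, and E2F, RB, MuvB and MYB partners 0 at a minimum of 100, against 1. No paired analysis was possible because each medium has 1 library. Genes with few counts, Ccnd1 above all, are limited by depth.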

Other observations

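The genes were also grouped by protein complex, a grouping made after the values were seen. Of 11 genes of DREAM subunits (Rbl1, Rbl2, E2f4, E2f5, Tfdp1, Tfdp2, Lin9, Lin37, Lin52, Lin54 and Rbbp4), 2 were at least 1.5-fold lower without methionine, 2 were at least 1.5-fold higher and 7 were within 1.5-fold, with a median log2 difference of -0.27. Those counts are near the shares among all measured genes, of which 18% were lower and 15.7% higher. Mybl2 and Foxm1, the 2 genes of the activating form already described, had log2 differences of -3.66 and -3.83. Of the 6 genes of E2F6 and its partners in the PRC1.6 complex (E2f6, Mga, Max, Pcgf6, L3mbtl2 and Rybp), 3 were at least 1.5-fold higher and none lower, with a median of 0.37. In that group Rybp had 53 CPM without methionine and 29.1 CPM in complete medium, and Mga had 257 CPM without methionine and 149 CPM in complete medium. Of the 5 genes of the MuvB core, 1, Lin52, was higher and none lower. No test was made of any of these groups.

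Several strongly lower regulators overlap genes on the opposite strand whose own counts differed little, and no source used here says whether counting used strand. Exosc9 shares 510 exonic bases with Ccna2 and had 846 counts without methionine and 679 in complete medium, a log2 difference of -0.10. Ints8 shares 609 exonic bases with Ccne2 and had 1123 counts without methionine and 906 in complete medium. Bysl, which shares 361 exonic bases with Ccnd3, lay the other way from it, with 2767 counts without methionine and 1295 in complete medium. The part of such overlaps in the differences was not tested gene by gene.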
